A study of Homo sapiens with 12 samples.

Results

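The promoters of 10 genes for gut and pancreatic peptide hormones were examined in BON1 cells, a line from a human pancreatic neuroendocrine tumor that is known to release serotonin and neurotensin. The genes were taken by name (GAST, SST, INS, GCG, PPY, PYY, NTS, TAC1, IAPP and GHRL), and are 10 of 20163 protein-coding genes of the annotation. H3K4me3, trimethylation of lysine 4 on histone H3, was mapped by CUT&RUN, in which an antibody tethers a nuclease to its target and the cut fragments are sequenced. Control cells (BON1/TGL/pQ) were set against cells that overexpress HA-tagged Bcl-xL (BON1/TGL/HA-Bcl-xL), an inhibitor of apoptosis, with 500000 cells per condition. Both lines share the BON1/TGL parent, and whether either is a single clone is not given in the sources used here. The peak lists hold no measure of Bcl-xL, so they do not check that label. Peak lists of 11 of 12 labelled samples were used: 5 of H3K4me3, from control replicates 1, 2 and 3 and from replicates 2 and 3 of HA-Bcl-xL cells, and 6 of nonspecific IgG, 3 from each line. The first H3K4me3 replicate of the HA-Bcl-xL cells is not analysed here. H3K4me3 values are given below in that order of replicates. The labels do not say that replicates came from separate cultures, so the p-values below measure the spread between these libraries, which may be technical.

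Peptide hormones are made as longer precursors, cut by prohormone convertases in secretory granules and released from scattered endocrine cells of the gut and the pancreatic islets. Most such cells make only a few of them, and tumors of this lineage can keep, lose or gain single hormones. H3K4me3 marks nucleosomes just downstream of the starts of active genes, and is also common at CpG-rich promoters of genes that are little transcribed.

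NTS encodes the precursor of neurotensin and neuromedin N, and was the only one of the 10 genes with H3K4me3 peaks inside its body. Its promoter held few CpG dinucleotides and its peaks none in the stretch below, while the promoter of TAC1, the precursor of substance P and neurokinin A, was CpG-rich and had no peak near it. These sequences are shown for that contrast, 5′ to 3′ on the gene strand in build hg19, with each CpG in capitals. The first is the 250 bases upstream of NTS (chr12:86267823-86268072, plus strand, 2 CpG), the second the longest stretch covered by NTS peaks in at least 4 of 5 H3K4me3 libraries (chr12:86269391-86269612, plus strand, intron 1, 0 CpG, 29.3% GC), and the third the 250 bases upstream of TAC1 (chr7:97361146-97361395, plus strand, 18 CpG).
NTS upstream: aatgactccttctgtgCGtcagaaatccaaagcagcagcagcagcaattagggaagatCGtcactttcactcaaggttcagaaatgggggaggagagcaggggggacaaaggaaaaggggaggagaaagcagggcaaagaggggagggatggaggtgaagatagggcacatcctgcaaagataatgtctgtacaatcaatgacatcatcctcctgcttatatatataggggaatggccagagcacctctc
NTS shared peak: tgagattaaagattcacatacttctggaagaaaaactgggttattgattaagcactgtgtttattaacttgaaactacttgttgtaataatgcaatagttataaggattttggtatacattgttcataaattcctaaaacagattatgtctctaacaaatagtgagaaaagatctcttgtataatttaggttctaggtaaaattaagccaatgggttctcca
TAC1 upstream: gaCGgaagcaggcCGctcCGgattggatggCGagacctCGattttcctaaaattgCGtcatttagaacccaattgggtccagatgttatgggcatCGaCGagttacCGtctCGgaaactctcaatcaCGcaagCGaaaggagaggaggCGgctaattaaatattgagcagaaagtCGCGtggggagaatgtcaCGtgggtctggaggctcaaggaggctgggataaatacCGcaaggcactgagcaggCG

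Depth is known only from statistics within the lists. The H3K4me3 lists held 10247 to 17711 peaks whose summits held 9 to 12 fragments in the median, the control IgG lists 1674 to 2113 peaks with a median of 3, and the HA-Bcl-xL IgG lists 244 to 268 with a median of 5. A missing peak is not read as a missing mark: among 5 reference genes, RPLP0 and TBP had a peak within 1 kb in all 5 H3K4me3 libraries, and ACTB in 1 within 1 kb and 3 within 2.5 kb. The counts of markers that follow are set beside all protein-coding genes, of which 48.1% were marked within 1 kb and 53.4% within 2.5 kb in at least 1 library, and 21.3% within 1 kb in all 5. Of 10 neuroendocrine markers, 7 were marked within 1 kb in at least 1 H3K4me3 library and 10 within 2.5 kb, with CHGB, NEUROD1, SCG2 and SCG3 marked within 1 kb in all 5 libraries. Of 5 acinar markers 1 had a peak within 1 kb (PTF1A, in 1 library), and of 3 fibroblast and 2 immune markers 0 had one, though the fibroblast marker COL1A1 had a peak within 2.5 kb in 1 library. All 5 duct or epithelial markers had a peak within 1 kb in at least 1 library, with KRT8, KRT18 and SOX9 marked in all 5.

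Taking for each gene its outermost annotated 5′ end, 1 of the 10 hormone genes, NTS, was marked by an H3K4me3 peak within 1 kb in at least 1 of the 5 libraries, where 48.1% of all protein-coding genes were. In all 5 libraries it was 0 of 10, against 21.3%. The NTS peaks within 1 kb were found in control replicates 1 and 3 and HA-Bcl-xL replicate 2, and not in control replicate 2 or HA-Bcl-xL replicate 3. In the 2.5 kb window NTS was marked in all 5 libraries and PYY in 2, so 2 of 10 genes were marked in at least 1 library against a background of 53.4%, and 1 of 10 in all 5 libraries against 25.6%. In the 10 kb window the same 2 genes were marked in all 5 libraries, against 60.5% of genes in at least 1 library and 29.7% in all 5. Measured from any annotated transcript start, the counts stayed at 1, 2 and 2 in windows of 1, 2.5 and 10 kb, where the backgrounds were 56.6%, 59.1% and 65.3%. An IgG peak was found at 0 of the 10 genes in every window, with backgrounds of 0.784% within 1 kb, 1.47% within 2.5 kb and 4.46% within 10 kb.

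The lines did not differ in this count beyond the spread between libraries. The control libraries had 1, 0 and 1 marked hormone genes within 1 kb, 0.667 ± 0.577 (SD, n = 3), and the HA-Bcl-xL libraries 1 and 0, 0.5 ± 0.707 (SD, n = 2). The difference of HA-Bcl-xL minus control was -0.167, smaller than the pooled SD of 0.624. Its sign is not stable: it was 0.167 in the 2.5 kb window and with equal list lengths, 0.333 without HA-Bcl-xL replicate 3 and -0.667 without HA-Bcl-xL replicate 2. A peak in both libraries of HA-Bcl-xL cells and none of control cells was seen at 0 hormone genes and 0.843% of all genes, and a peak in all 3 control libraries and neither of the others at 0 and 0.248%. With 2 libraries against 3, an exact two-sided permutation test cannot give a p below 0.2.

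**Figure D1:**
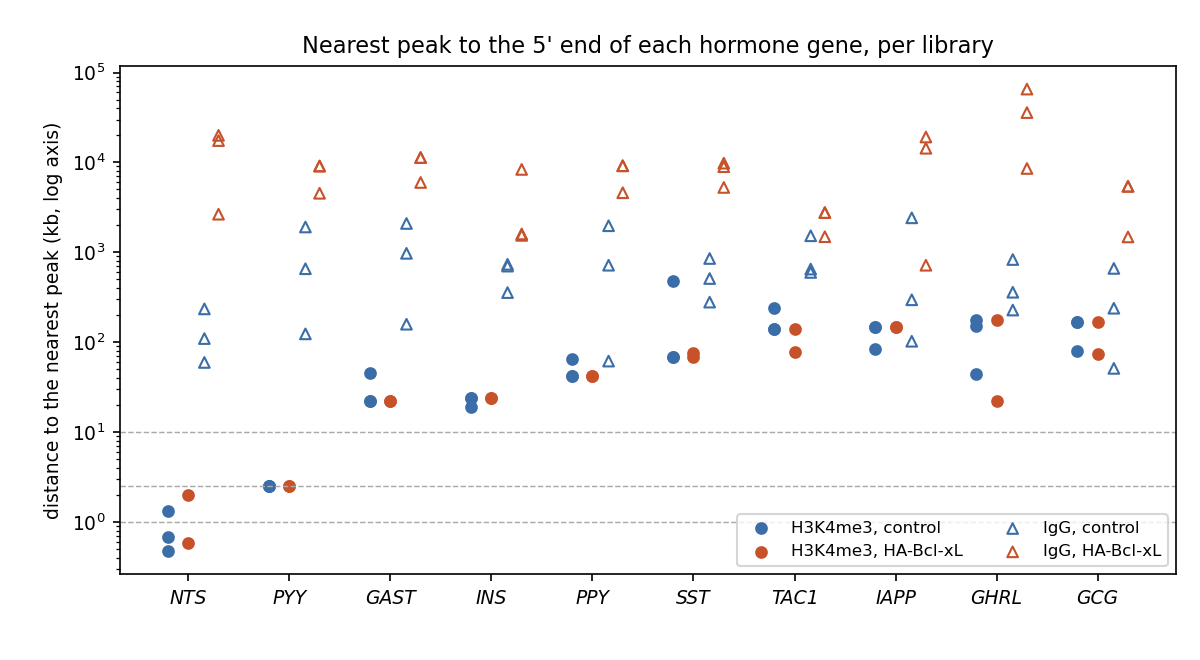
Distance in kb (log axis) from the 5′ end of each hormone gene to the nearest peak of each library, with filled circles for H3K4me3, open triangles for IgG, and dashed lines at 1, 2.5 and 10 kb. NTS and PYY lie under 10 kb in every H3K4me3 library, and the other 8 genes lie above it in every library.

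NTS lies at chr12:86268073-86276770 on the plus strand (ENSG00000133636.11_6), and all of its peaks were downstream of the start, within intron 1. Control replicate 1 had 5 peaks, between 472 and 2144 bp from the 5′ end, that covered 779 bases of the 2.5 kb window. Control replicate 2 had 2 peaks between 1318 and 1832 bp that covered 428 bases. Control replicate 3 had 3 peaks between 685 and 2038 bp that covered 469 bases. The control libraries thus differed among themselves in the number, place and length of the peaks. HA-Bcl-xL replicate 2 had 4 peaks between 585 and 2106 bp that covered 874 bases, the most of any library. HA-Bcl-xL replicate 3 had 1 peak, from 1972 to 2183 bp, that covered 212 bases, the fewest. Exon 1 ended 181 bp from the 5′ end and exon 2 began at 2345 bp, so no peak touched either exon. Of the bases between the 5′ end and 2.5 kb, 289 were covered in at least 4 libraries, in 2 stretches of 222 and 67 bp, and 0 in all 5. The highest peaks held 22, 18 and 18 fragments at the summit in control libraries and 17 and 14 in HA-Bcl-xL libraries.

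**Figure D2:**
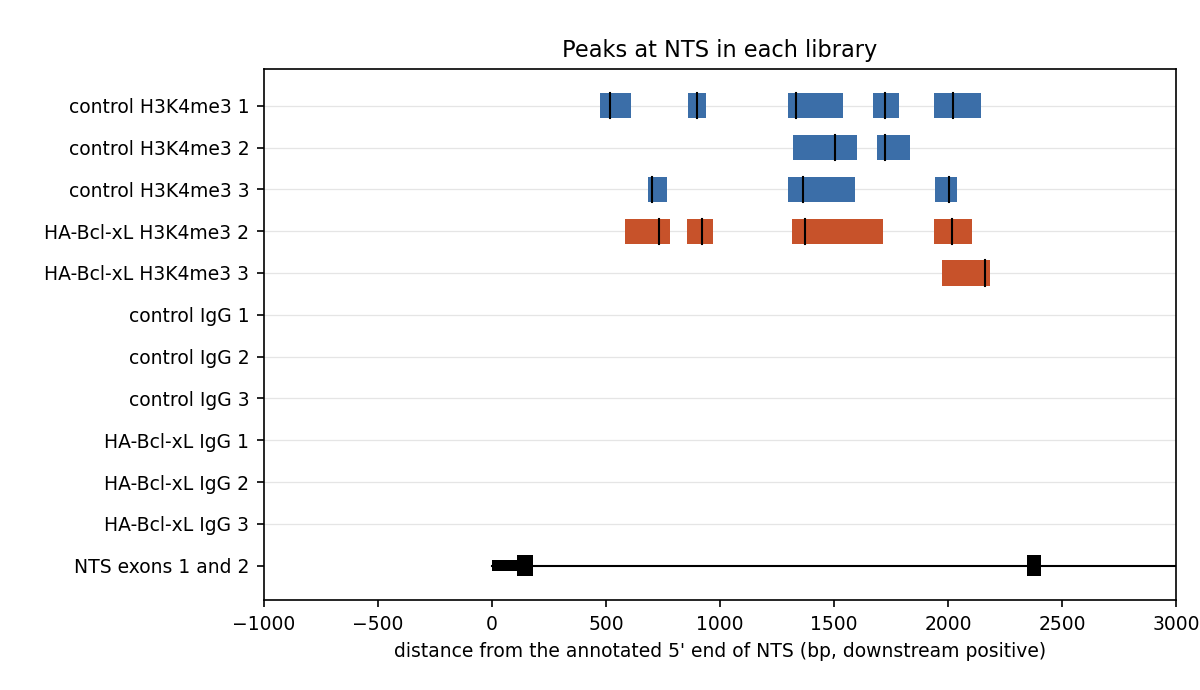
Peaks of each library (bars, with the summit as a black line) by distance in bp from the 5′ end of NTS, with the exons below, taller where coding. Blue bars are control and orange bars HA-Bcl-xL H3K4me3 libraries, all bars lie between exons 1 and 2, and the 6 IgG libraries have none.

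The distance of the NTS peaks from the start was on the long side, and many other genes shared it. The nearest peak edge lay 472, 1318 and 685 bp from the 5′ end in control libraries, and 585 and 1972 bp from it in those of HA-Bcl-xL cells, a median of 685 bp. Over the 5154 genes with a peak within 2.5 kb in all 5 libraries, the median of that value was 80 bp, and it was at least that of NTS for 919 genes (17.8%). The covered length at NTS, a median of 469 bases, exceeded the 251 bases of the median gene, and 9.24% of these genes had more. By percentile rank within its own list (by the authors' -log10 p), the strongest NTS peak stood at 68.6, 61.0 and 76.1 in control and 60.3 and 41.0 in HA-Bcl-xL libraries. By fragments at the summit it stood higher, above 88.25, 86.55 and 91.25% of peaks in control and 81.71 and 69.68% in HA-Bcl-xL libraries. The genes with the most similar ranks by -log10 p over the 5 libraries were PAIP2, ASAH2B and DDIT4, at Euclidean distances of 8.2, 9.2 and 9.5 percentile points.

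Covered length at NTS and PYY did not pass the test between the lines. limma (moderated test with Benjamini-Hochberg adjustment) on log2(bases under peaks within 2.5 kb + 50) gave NTS a log2 change of -0.36 (SE 0.392, adjusted p = 1.00) in HA-Bcl-xL cells, and PYY one of 0.02 (SE 0.70). Of 9454 genes tested, 0 passed an adjusted p of 0.05 (0.0% called) and 409 had an unadjusted p under 0.05. On simulated data for this comparison, 0%, 11.9% and 37.9% of genes changed by 1, 2 and 4 log2 units were called, so the test sees only very large changes. Sign and size at NTS rested on single HA-Bcl-xL libraries and on the window: the log2 change was 0.51 without replicate 3, -1.22 without replicate 2 (adjusted p = 0.502) and 0.05 with a 1 kb window. Leaving out either HA-Bcl-xL library also raised the number of genes called from 0 to 5.

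A further value, the background that the peak caller held each peak against, was lower at NTS in both HA-Bcl-xL libraries than in the 3 control libraries. The library that set this background is not given in the sources used here: it may be the H3K4me3 library itself or a control such as IgG, so it is not read as a level of H3K4me3. It was solved from the authors' fold and -log10 p and divided by the lowest background of the list. This ratio was 39.8, 31.1 and 35.3 at NTS in control and 27.3 and 25.0 in HA-Bcl-xL libraries. All 3 control values exceeded both HA-Bcl-xL values, which held for 3.71% of the 5154 genes. Relative to the median gene of each library, NTS stood at 3.04, 3.32 and 3.18 in control and 2.46 and 2.22 in HA-Bcl-xL libraries, again without overlap, a pattern found at 13.3% of genes (the reverse at 10.1%). limma on the centred log2 values, a test chosen after these values were seen and so no independent support for them, gave NTS a log2 change of -0.44 (SE 0.0844, adjusted p = 0.00415). NTS was 1 of 7 genes called lower in HA-Bcl-xL cells (0.136% of 5154), with FLRT3, B3GALT2, ITPRID2, YAE1, ZNF518A and RCC1, and 0 were called higher.

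The call at NTS depended on the scaling and on single libraries. Without centring, the log2 change was -0.43 with an adjusted p of 0.999 by limma. It was -0.39 (adjusted p = 0.0894) with quantile and -0.38 (adjusted p = 0.0826) with cyclic loess scaling. Leaving out control replicate 2 gave -0.41 (adjusted p = 0.0657), and leaving out HA-Bcl-xL replicate 3 gave -0.37 (adjusted p = 0.296). The direction was negative under each of these settings. Copy number was not measured, and its part in this value, like that of a control track, was not tested. The other 17 genes of this set within 10 Mb of NTS had a median log2 change of -0.066, from -0.343 to 0.26, and the 243 other genes of chromosome 12 one of -0.02, from -0.528 to 0.409, so at least 1 of these was lower than NTS.

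**Figure D3:**
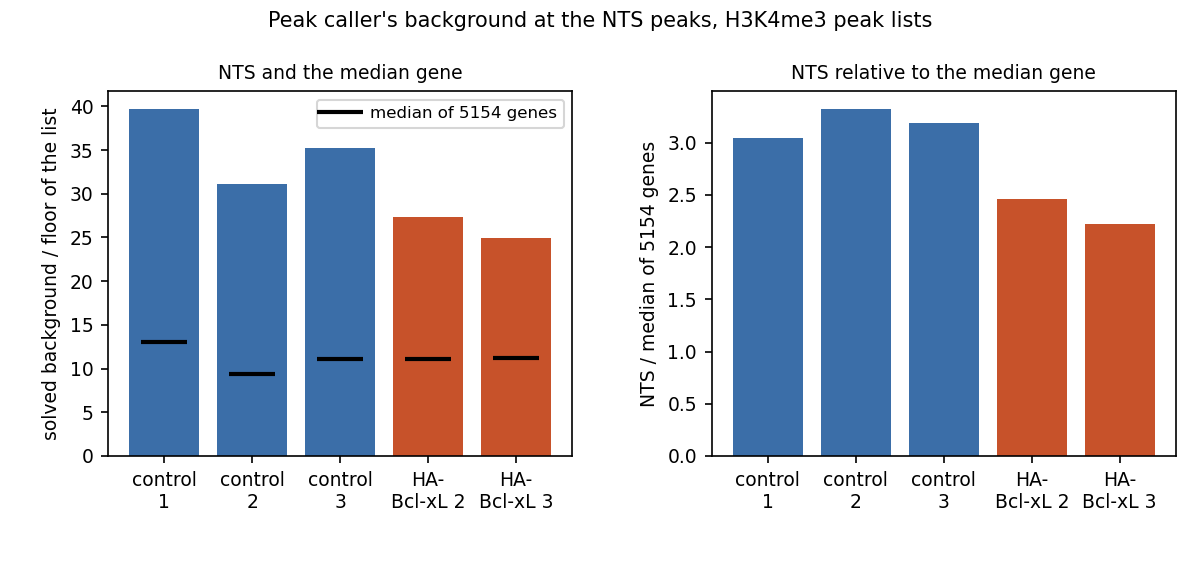
Peak caller's background at the NTS peaks, solved from each H3K4me3 peak list: on the left as a multiple of the lowest background of the list, with black lines for the median of 5154 genes, and on the right as a multiple of that median. The 3 control libraries (blue) lie between 3.04 and 3.32 times the median gene, and the 2 HA-Bcl-xL libraries (orange) at 2.46 and 2.22.

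This background was high at NTS in both lines. Its ratio in the median library, 31.1, compared with 11.1 for the median gene, and 223 of the 5154 genes (4.33%) had a higher one. The NTS peaks stood above 92.9 to 97.1% of the peaks of their lists by this value. In H3K4me3 lists, peaks with no other peak within 5 kb had a median ratio of 4.7 to 6.35, and peaks with at least 3 others 23.2 to 28.3. NTS in HA-Bcl-xL replicate 3 had a single peak, at 25.0, and peaks with no such neighbour in that list had a median of 4.99. The part of neighbouring peaks in the value at NTS was not tested. The IgG peak nearest to the NTS 5′ end was 59.4 kb away.

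PYY encodes peptide YY, a satiety peptide of the distal gut, and its peaks lay on the side of a neighbouring gene. Its most 5′ annotated end, chr17:42081837 on the minus strand, faces the start of NAGS (N-acetylglutamate synthase, of the urea cycle) 153 bp away. The nearest peak was upstream of PYY and downstream of the NAGS start in every H3K4me3 library, 2523, 2472 and 2524 bp from the PYY end in control libraries, and 2534 and 2472 bp from it in those of HA-Bcl-xL cells. These values straddle the 2.5 kb limit, and that alone set which 2 libraries (control replicate 2 and HA-Bcl-xL replicate 3) counted as marked. The summits held 10, 8 and 6 fragments in control and 7 and 8 in HA-Bcl-xL libraries, 2357 to 2420 bp inside NAGS. The bases covered in all 5 libraries, chr17:42084371-42084395 in hg19, are shown on the plus strand with each CpG in capitals, since they hold 3 of them in 25 bases.
Peak shared beside PYY: tCGacCGggagagatgggCGgggct
The start of the canonical PYY transcript lies 50529 bp downstream of this end, and its nearest H3K4me3 peak was 53.0 to 53.1 kb away.

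**Figure D4:**
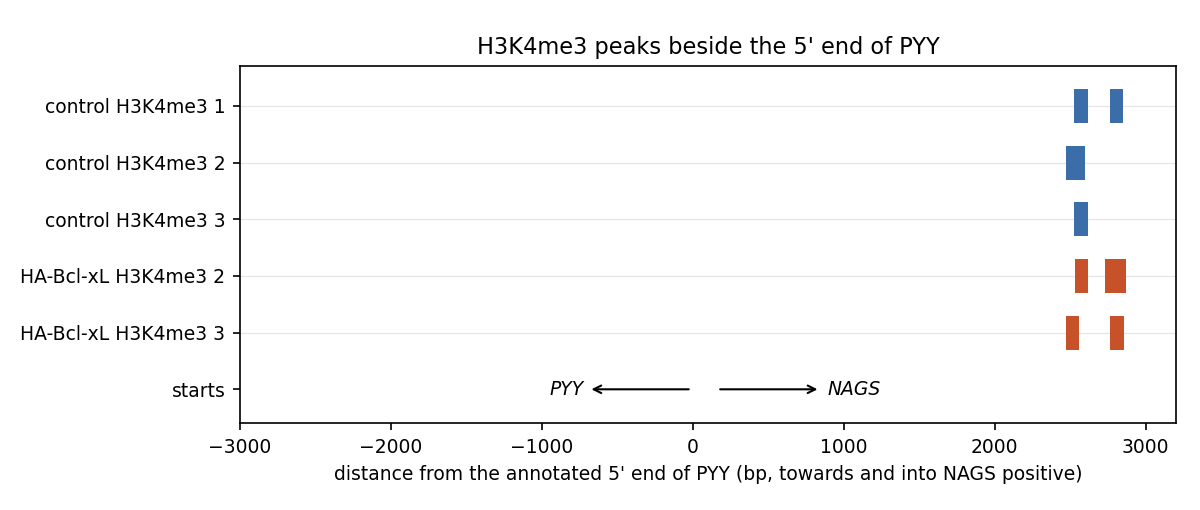
H3K4me3 peaks (bars) of each library by distance in bp from the 5′ end of PYY, with arrows for the starts and directions of PYY and NAGS, blue for control and orange for HA-Bcl-xL. All peaks drawn lie on the NAGS side, 2472 bp or more from the PYY end, and none on the PYY side.

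For the other 8 hormone genes the 10 kb window held no H3K4me3 peak in any of the 5 libraries. GAST encodes gastrin, which drives gastric acid secretion, and its nearest peak was 22.3 kb away in 4 libraries, beside EIF1, and 45.2 kb in control replicate 2. INS encodes insulin, and its nearest peak was 19.2 kb away in control replicate 1 and 23.8 kb in the others, in the IGF2 locus near IGF2-AS and MIR483. INS could not be told apart from INS-IGF2, whose start is 12 bp away. PPY encodes pancreatic polypeptide, of the same family as PYY, and its nearest peak was 41.7 or 41.8 kb away in 4 libraries, and 64.5 kb away, the NAGS peak, in control replicate 2. SST encodes somatostatin, which inhibits the release of many hormones, and its nearest peak was 68.5 to 75.3 kb away in 4 libraries and 483 kb in control replicate 3.

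The remaining 4 genes had the longest distances in the median over libraries, though not in every library. GCG encodes proglucagon, the source of glucagon and of the incretin GLP-1, and its nearest peak was 166 kb away at the start of GCA in 3 libraries, 78.8 kb in control replicate 2 and 73.6 kb in HA-Bcl-xL replicate 3. TAC1 had its nearest peak 140 kb away at ASNS in 3 libraries, at 240 kb in control replicate 3 and at 76.8 kb in HA-Bcl-xL replicate 3. IAPP encodes amylin, which beta cells release with insulin, and its nearest peak was 147 kb away in 4 libraries and 83.6 kb in control replicate 1. Its canonical transcript starts 17943 bp further downstream, 65.6 to 129 kb from the nearest peak. GHRL encodes ghrelin, an appetite hormone of the stomach, and its nearest peak lay between 22.1 and 177 kb away. For each of these 8 genes the ranges of the distances in the 2 lines overlapped. The share of all genes with such an overlap was not counted, so nothing about the lines is read from this. Over the 10 genes the median distance was 55.2 kb against 15.7 kb over all protein-coding genes. Of the 10, 8 lay beyond 10 kb, where 53.4% of all genes did, and the same 8 beyond 20 kb, where 47.7% did.

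In the median, the promoters of these genes held fewer CpG than those of all genes, a feature that the choice of genes did not use, and TAC1 alone lay above the median of all promoters. For PYY and IAPP the window lies at the outermost 5′ end, 50529 and 17943 bp from the canonical start, so their values here and in the motif search do not describe the canonical promoter. At GCG the canonical start lies 157 bp downstream of that end, also beyond the window, so its values cover the canonical promoter only in part. From 250 bp upstream to 50 bp downstream of the 5′ end, the ratio of observed to expected CpG had a median of 0.280 in the 10 genes and 0.694 in 20140 promoters. It was 0 at IAPP, 0.121 at NTS, 0.204 at GAST, 0.235 at INS, 0.265 at GCG, 0.296 at PPY, 0.386 at GHRL, 0.524 at PYY, 0.674 at SST and 1.12 at TAC1. Genes with few CpG seldom had a peak: of 3969 genes under 0.25, 5.9% had a peak within 1 kb in at least 1 library and 4.03% one within 2.5 kb in all 5. Of genes from 0.25 to 0.5, 20.3% had a peak within 1 kb, of those from 0.5 to 0.75 57.1%, and of those over 0.75 73.6%. NTS thus belonged to a class in which 11.7% of genes had a peak within 2.5 kb in at least 1 library and 4.03% in all 5. TAC1, above 97.7% of promoters in this ratio, belonged to a class in which these shares were 77.9% and 37.6%.

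**Figure D5:**
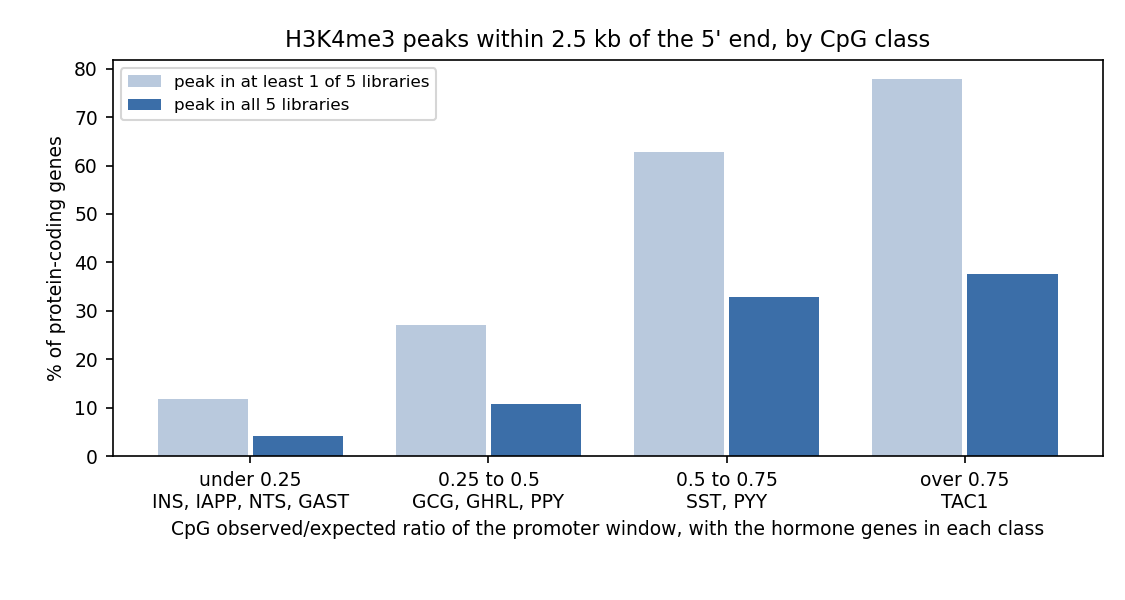
Share of protein-coding genes (%) marked by H3K4me3 in the 2.5 kb window, by class of the CpG observed/expected ratio of the promoter window, pale bars for at least 1 and dark bars for all 5 libraries. The hormone genes of each class stand under it, and the share in all 5 libraries rises from 4.03% in the lowest class, which holds NTS, to 37.6% in the highest, which holds TAC1.

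Motifs were searched on both strands of the same windows, and a match describes letters only. TATAAA, the letters of the TATA box, was found at INS and PPY, on the opposite strand at GAST, and at SST at positions -215 to -210 from the start, and in 10.9% of all promoters. TGACGTCA, the cyclic AMP response element, was found at SST alone among the 10 genes, at positions -47 to -40, and in 2.29% of promoters. TGANTCA, the AP-1 site, was found at PYY and IAPP and in 6.37%. GGGCGG, the GC box, was found at PYY and GAST and in 52.2% of promoters. CCAAT was found in the windows of IAPP, TAC1 and GCG and in 35.8%. CATCTG, an E-box, was found in those of INS, GCG and TAC1 and in 13.0%. None of the 6 was found at NTS or GHRL. The SST promoter is shown because it holds the rarest of these motifs, as the 250 bases upstream of the start on the minus strand (chr3:187388183-187388432, hg19) with TATAAA and TGACGTCA in capitals.
SST upstream: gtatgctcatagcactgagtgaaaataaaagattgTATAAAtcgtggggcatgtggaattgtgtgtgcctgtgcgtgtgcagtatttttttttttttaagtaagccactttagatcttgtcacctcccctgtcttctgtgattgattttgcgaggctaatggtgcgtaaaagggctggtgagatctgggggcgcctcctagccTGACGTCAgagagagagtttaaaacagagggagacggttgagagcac

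Other peptide genes also had few peaks. Of 40 further hormone and neuropeptide genes, 3 had an H3K4me3 peak within 1 kb in at least 1 library (ADCYAP1, ADM and RLN2, 7.5% against 48.1% of all genes), 0 had one in all 5 libraries (21.3% of all genes) and 1 had an IgG peak (0.784% of all genes). Of 26 receptors for the 10 hormones, 4 were marked in at least 1 library (SSTR1, INSR, IGF1R and SORT1, 15.4%) and 1 in all 5, SORT1, a sorting receptor that binds neurotensin. Of a list of 15 genes, all for processing or degrading the precursors and peptides except the receptor GLP1R, which is also among the 26 receptors and was not marked, 7 were marked (46.7%) and 1 in all 5 libraries, IDE, the insulin-degrading enzyme. The 3 lists had 0 genes marked in all libraries of one line and none of the other within 1 kb. Among all genes, 0.843% were so marked in HA-Bcl-xL cells alone and 0.248% in control cells alone. ADCYAP1, ADM, RLN2, SSTR1, INSR and IGF1R were named after their values were seen. Shares of such short lists are descriptions, and nothing particular to a list is read from them.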

How the data were processed

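The H3K4me3 and IgG CUT&RUN data used were 11 deposited narrowPeak lists, each of 1 library. The submitters' processing notes name bcl2fastq 2.20, Trimmomatic 0.36, Bowtie2 2.2.9, MACS2 2.1.1, deepTools 3.5.1 and hg19, with no role or order. The control track, duplicate treatment and caller settings are not given in the sources used here. Each peak's score, fold and -log10 p and -log10 q are the authors' deposited values, and 0 peaks had a q-value above 0.01. Peaks outside chromosomes 1 to 22, X and Y were left out. Genes came from the GRCh37 annotation (GENCODE release 44 lifted to that build). A gene counted as marked with at least 1 bp of a peak in the window. 

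Fragments at the summit and background were solved from fold = (n + 1) / (background + 1) and a Poisson tail, with n whole, within 0.001 for 95.9 to 99.97% of peaks per list. In 1816 simulated peaks 100% were recovered. Solved values cover counting only, since PCR copies are not independent. limma 3.58.1 (R 4.3.3) was run on log2 values over all genes with a peak within 2.5 kb in at least 2 H3K4me3 libraries (all 5 for the background), each library centred on its median, and tested on simulated data. In the simulation for the background, 46.3%, 85.1% and 100% of genes changed by 0.5, 1 and 2 log2 units were called.

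The genes, lists and windows were chosen with earlier results of these data known. All 10 genes are described. The 3 genes nearest NTS in rank, and listed genes marked in all 5 libraries, were named by rule, and the markers and neighbouring genes beside their counts or peaks. The test of the background was added after seeing the data. Windows, peak strength, list length, removal of IgG peaks, summits, pseudocounts, filters, scalings, leaving out single libraries and a replicate block were tried as alternatives. Promoter sequences were read from GRCh37, and RefSeq promoters (GRCh38) matched all 10 genes by symbol. The longest exact run that these shared with the window was 143 bp at GCG, 276 bp at PYY and 288 bp at INS. At the other genes it was 298 or 300 bp. Python 3.11.15, scipy 1.17.1 and pysam 0.24.0 were used.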

Additional observations from a re-analysis of the deposited data

How the results depend on the processing

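Of 145 alternatives over 12 results, 21 moved an untested value beyond the spread between replicates or a count beyond 1.5 times, 5 ended a call and 2 turned a log2 change. The other 117 did none of these, but include changes of sign in the difference in marked hormone genes: -0.167 became 0.167 with a 2.5 kb window and with equal list lengths, and ranged from -0.667 to 0.333 leaving out 1 library. The number of marked hormone genes was 2 with windows of 2.5 and 10 kb, by PYY, and stayed at 1 when each library was left out in turn. The log2 change of bases under NTS peaks turned to 0.05 with a 1 kb window and to 0.51 without HA-Bcl-xL replicate 3 (range -1.22 to 0.51 leaving out 1 library), and the cause was not tested. Genes called for covered length numbered 0 to 5 leaving out 1 library, and 5 came from leaving out either HA-Bcl-xL library, which leaves 1 sample that is assumed to vary like the others. The test of the peak caller's background, added after seeing the data, called 0 genes without centring (NTS -0.43), 1 with quantile scaling (NTS -0.39), 1 with cyclic loess (NTS -0.38) and 0 to 4 leaving out 1 library (NTS -0.52 to -0.37, adjusted p 0.0116 to 0.296), and the cause was not tested.

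Replicate numbers 2 and 3 were shared by both lines. In covered length, the deviations of same-numbered libraries from the mean of their line had r = 0.0145 and 0.0271 over genes. The 2 HA-Bcl-xL libraries deviate from their mean as mirror images, so these values cannot tell whether same-numbered libraries share a culture or batch. With a replicate block 21 genes were called for the background, NTS at -0.48 (adjusted p = 0.000229), and 0 for covered length. Control replicate 1 has no partner, so the change between lines in the block fit came from replicates 2 and 3 alone. Its size at NTS was the same, -0.48, when control replicate 1 was left out. The hormone gene difference with the block was 0. Depth limits each list to peaks of a few fragments or more, so unmarked genes may carry the mark below that level.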
